A study of Mus musculus with 12 samples.

Results

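The colony stimulating factor receptors and ligands are 7 of the 46517 genes in the count table, and they were chosen by name. They are the receptor genes Csf1r, Csf2ra, Csf2rb, Csf2rb2 and Csf3r and the ligand genes Csf1 and Il34. They were followed across macrophages of the mouse aorta and adipose tissue that had been sorted by surface LYVE-1, a hyaluronan receptor, and profiled by bulk RNA sequencing. The 4 groups were aorta LYVE1+, aorta LYVE1-, fat LYVE1+ and fat LYVE1-, with 3 libraries each. Every cell came from adult wild-type C57/BL6 mice, and all groups passed the same gate: DAPI negative, then CD45, CD64, MerTK, CD11b and F4/80 positive. The aortic cells were taken from 30 mice, and the adipose cells from 20 mice whose epididymal and subcutaneous depots were both used. Separate pools of animals behind the 3 libraries of a group are not stated, and the p-values therefore measure the spread between these libraries, which may be technical.

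CSF1R is the tyrosine kinase receptor on which most tissue macrophages depend for survival, and it binds both CSF1 and IL-34. The GM-CSF receptor pairs a ligand-specific alpha chain, CSF2RA, with the common beta chain CSF2RB, which the IL-3 and IL-5 receptors also use, and it signals through JAK2 and STAT5. Mice carry a further beta chain next to it, encoded by Csf2rb2, which serves IL-3. CSF3R is the G-CSF receptor, best known from neutrophils and their precursors.

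Library totals ranged from 5049936 to 29792301 counts. Lyve1 itself stood at 2044 to 2807 CPM (counts scaled to a common library size with TMM factors) in aorta LYVE1+ libraries, against 868.2 to 1323 CPM in aorta LYVE1- libraries, and at 1497 to 2193 CPM in fat LYVE1+ libraries and 230.1 to 610.9 CPM in fat LYVE1- libraries, so the sorts did not overlap in either tissue. The 6 genes of the gate, Lyve1 included, had counts in every library and summed to 2455 to 5759 CPM on the plain library size, without TMM factors, the scale of all sums over marker lists. The difference in Lyve1 passed the test in fat (adjusted p = 0.00383, edgeR) and missed it in the aorta (adjusted p = 0.108). The fat libraries numbered 1 stood apart from the rest. Mitochondrial genes held 8.85% (LYVE1+) and 12.14% (LYVE1-) of the counts there and between 1.787% and 3.202% elsewhere, and 5 erythroid markers summed to 25920 CPM (LYVE1+) and 5271 CPM (LYVE1-) there, on the plain library size. B cell markers summed there to 479.8 and 171.9 CPM, against 18.78 to 38.65 CPM in the other fat libraries. T and NK markers summed to 153.3 and 86.06 CPM, against 9.022 to 21.15 CPM. Adipocyte markers summed to 77.62 and 71.82 CPM, against 19.94 to 29.75 CPM. The library codes in the titles begin with RMM for aorta LYVE1+ libraries 1 and 2 and all fat libraries, and with RHH for aorta LYVE1+ library 3 and all aorta LYVE1- libraries. What the prefix stands for is not given in the labels.

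All coordinates are in GRCm38, with GENCODE M21 as the annotation. Csf2ra lies on chr19:61223957-61228429 (minus strand), Csf3r on chr4:126024550-126044440 (plus), Csf1 on chr3:107741048-107760469 (minus) and Il34 on chr8:110741829-110805924 (minus). Csf2rb on chr15:78325752-78353847 (plus) and Csf2rb2 on chr15:78282507-78305721 (minus) are neighbours that point away from each other, with 20030 bases between them. The library protocol, Smart-seq2, does not mark the strand, so reads of Il34 cannot be told apart from those of Gm15894 and Gm15895 where it overlaps these antisense genes.

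Csf2rb and Csf2rb2 are close paralogs, and their sequences are shown because the separation of their counts rests on them. Their coding sequences, of 2688 and 2634 bases, were identical at 2504 of 2626 aligned bases, or 95.4%, and the longest identical run was 242 bases. A further 70 positions of the alignment held a gap in 1 of the genes and are not counted in this share. Stretches of 51 bases, the length of 1 sequenced read, were shared between the 2 genes at 873 places, which is 12% of such stretches in Csf2rb exons and 18% in Csf2rb2 exons. The first window shown holds the end of the longest identical run and the bases that follow it. It covers coding bases 2265 to 2354 of each gene and reads as follows, with capitals at the positions that differ. It lies in exon 15 of Csf2rb (chr15:78348759-78348848, plus) and exon 14 of Csf2rb2 (chr15:78284600-78284689, minus).
Csf2rb, end of the identical run: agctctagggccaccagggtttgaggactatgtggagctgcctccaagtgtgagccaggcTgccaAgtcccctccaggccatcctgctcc
Csf2rb2, end of the identical run: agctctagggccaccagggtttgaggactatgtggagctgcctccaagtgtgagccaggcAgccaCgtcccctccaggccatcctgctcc
The least similar window of 90 bases was identical at 74. It covers coding bases 308 to 397 in exon 5 of Csf2rb (chr15:78338897-78338986) and 311 to 400 in exon 4 of Csf2rb2 (chr15:78294345-78294434).
Csf2rb, least similar window: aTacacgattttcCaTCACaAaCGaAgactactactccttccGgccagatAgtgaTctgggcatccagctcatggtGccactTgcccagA
Csf2rb2, least similar window: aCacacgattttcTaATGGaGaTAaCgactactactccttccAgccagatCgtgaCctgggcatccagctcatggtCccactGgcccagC
A read from the first window may map to both genes, and a read from the other may be told apart. How such reads were treated in the counting is not given in the sources used here. Of the counts of the 2 genes together, 65.3% to 79.2% per library were assigned to Csf2rb.

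Promoter windows from 250 bases before to 50 bases after the start site were taken from RefSeq (GRCm38.p6), and 4 of the 7 members had one that could be shown. The windows of Csf2ra and Csf3r are printed because these are the receptor genes called in a comparison within 1 tissue or within 1 sort. Capitals mark GAGGAA, the core bound by the macrophage factor PU.1, searched for on both strands.
Csf2ra, chr19:61228369-61228668, minus strand: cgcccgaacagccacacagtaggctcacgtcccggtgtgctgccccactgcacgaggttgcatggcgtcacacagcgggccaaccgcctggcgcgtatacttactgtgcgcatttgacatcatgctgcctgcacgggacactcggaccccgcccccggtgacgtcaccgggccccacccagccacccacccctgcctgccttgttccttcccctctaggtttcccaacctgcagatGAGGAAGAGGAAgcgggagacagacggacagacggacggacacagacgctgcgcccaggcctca
Csf3r, chr4:126024409-126024708, plus strand: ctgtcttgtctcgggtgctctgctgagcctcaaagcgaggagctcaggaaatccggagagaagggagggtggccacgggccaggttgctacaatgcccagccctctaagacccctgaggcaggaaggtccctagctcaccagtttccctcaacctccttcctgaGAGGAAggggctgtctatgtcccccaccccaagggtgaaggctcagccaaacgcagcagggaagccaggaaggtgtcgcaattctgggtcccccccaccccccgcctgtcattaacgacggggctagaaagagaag
The Csf2ra window held GAGGAA at 2 adjacent places, the first base at -14 and -8 from the start site, and the Csf3r window held it once, at -86. The Csf2rb2 window held it on the other strand at 2 places, at -167 and 30, and the Csf1 window held none. The letters occur on 1 strand or the other in 28.3% of all 32851 windows of this length, so their presence describes the sequence and does not show a site.

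Csf1r was the most abundant member in all 12 libraries. Compared per kilobase of exon, its TMM-scaled level averaged 1126 CPM in aorta LYVE1+, 975.2 CPM in aorta LYVE1-, 927.2 CPM in fat LYVE1+ and 723.1 CPM in fat LYVE1- cells. Csf2ra came next, at 70.51, 95.31, 75.78 and 127.9 CPM per kilobase in the same order of groups. Csf2rb, Csf2rb2 and Csf3r lay between 8.994 and 25.46 CPM per kilobase as group means, and Csf1 between 0.5987 and 1.286. Csf1r alone held 0.278% to 0.666% of all counts of a library and ranked between the 9th and the 27th most counted gene. Of the 7 members, 6 passed the filter on low counts and were tested; Il34 did not pass.

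**Figure D1:**
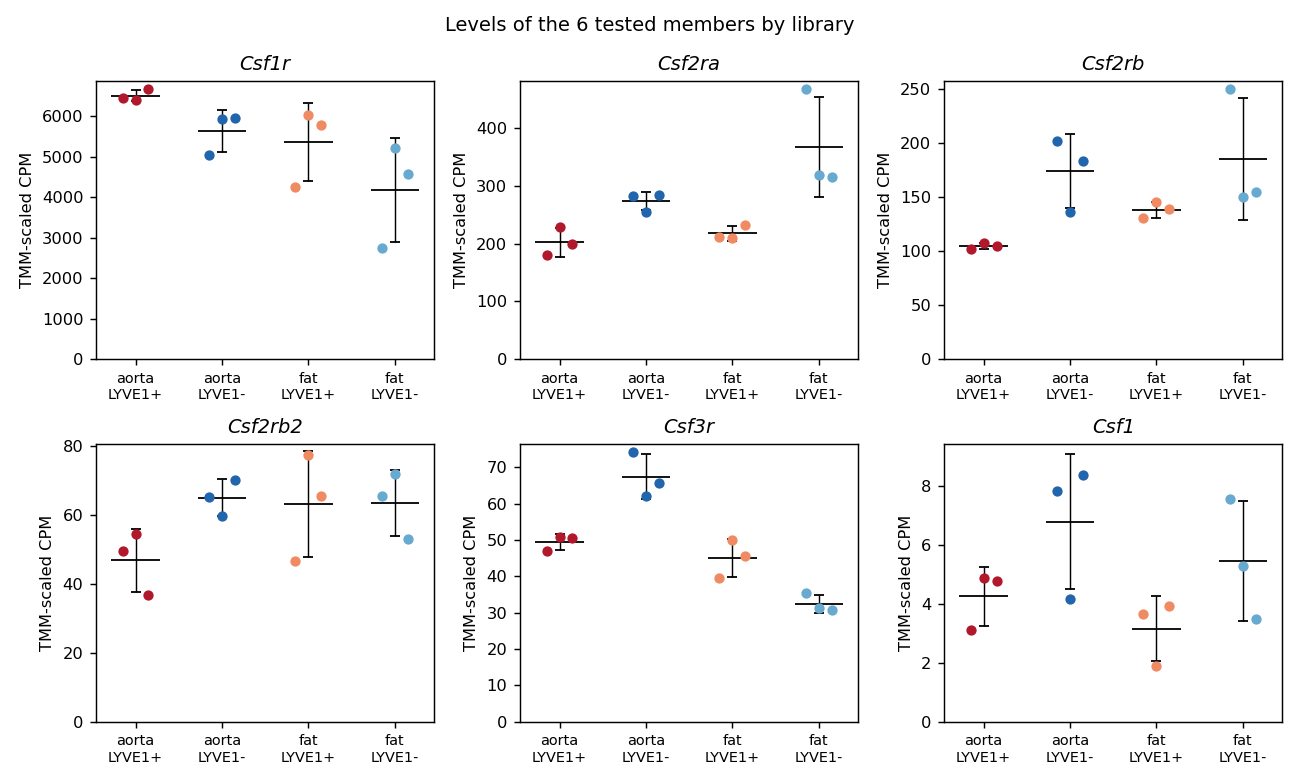
TMM-scaled CPM (vertical axis, starting at 0) of the 6 tested members in each of the 12 libraries, with each group's mean and SD over 3 libraries. The fat LYVE1- library numbered 1 lies lowest for Csf1r, at 2750 CPM, and highest for Csf2ra and Csf2rb, at 467.0 and 250.4 CPM.

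Csf1r was not called different between the sorts in either tissue. The gene lies at chr18:61100598-61132149 on the plus strand and shares 873 exon bases with Hmgxb3 on the other strand, where the reads of both cannot be told apart. In the aorta it stood at 6438, 6403 and 6668 CPM in LYVE1+ libraries 1 to 3, against 5027, 5922 and 5943 CPM in LYVE1- libraries 1 to 3. In fat it stood at 4248, 6028 and 5784 CPM in LYVE1+ libraries, against 2750, 5218 and 4558 CPM in LYVE1- libraries. The aortic sorts did not overlap, while the fat LYVE1+ library 1 fell below 2 of the 3 LYVE1- libraries, and in both sorts the library numbered 1 was the lowest of fat. The log2 fold change, LYVE1+ over LYVE1-, was 0.208 in the aorta (SE 0.223, 95% interval -0.275 to 0.69, adjusted p = 0.781) and 0.359 in fat (SE 0.224, -0.125 to 0.842, adjusted p = 0.5). Averaged over both tissues it was 0.283 (SE 0.158, adjusted p = 0.335). With the replicate number as a block within tissue, the average difference was called (0.302, SE 0.076, edgeR adjusted p = 0.033). It was also called without both fat libraries numbered 1 (0.24, SE 0.07, adjusted p = 0.0432). As in any bulk sample, fewer cells of a type and less RNA per cell cannot be told apart.

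Both chains of the GM-CSF receptor were called lower in LYVE1+ macrophages in the average over tissues, namely Csf2ra, the alpha chain that binds GM-CSF, and Csf2rb, the common beta chain. Csf2ra was also called lower in fat. A call means a Benjamini-Hochberg adjusted p under 0.05 over all 14216 genes tested with edgeR's quasi-likelihood test. In fat, 1 of the 6 tested members was called lower, beside 2.10% of all genes tested. In the average over tissues, 2 of 6 were called lower, beside 3.43% of all genes. In the aorta 0 of 6 members were called in either direction, beside 0.542% of all genes, while 4 had an unadjusted p under 0.05 (Csf2ra, Csf2rb, Csf2rb2 and Csf3r) and DESeq2 called 1 (Csf2rb).

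In fat, Csf2ra stood at 210.9, 209.5 and 232.3 CPM in LYVE1+ libraries 1 to 3, against 467.0, 319.0 and 315.7 CPM in LYVE1- libraries. In the aorta the values were 179.4, 228.9 and 199.0 CPM in LYVE1+ libraries and 282.4, 255.2 and 283.4 CPM in LYVE1- libraries. No LYVE1+ library of either tissue reached the lowest LYVE1- library of any tissue. In fat Csf2ra was 1.687-fold lower in LYVE1+ cells (log2 -0.755, SE 0.167, edgeR adjusted p = 0.0235), the aortic difference was -0.435 (SE 0.166, 95% interval -0.794 to -0.075, adjusted p = 0.33) and the average was -0.595 (SE 0.118, adjusted p = 0.0102). The difference between the tissues was not called (0.32, SE 0.235, adjusted p = 0.954). Without both fat libraries numbered 1 the fat difference was -0.523 (SE 0.141, adjusted p = 0.0467). The fat call ended without fat LYVE1+ library 2 (adjusted p = 0.104) or 3 (0.0709), without fat LYVE1- library 1 (-0.544, 0.0633), and when the fit held the fat groups alone (-0.763, 0.129). The average call ended with the library prefix in the model (-0.607, SE 0.156, adjusted p = 0.0785).

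Csf2rb followed in the same direction with a smaller spread in LYVE1+ cells. It stood at 102.4, 108.0 and 104.9 CPM in aorta LYVE1+ libraries, against 202.6, 136.2 and 184.0 CPM in aorta LYVE1- libraries. Fat LYVE1+ libraries had 130.7, 145.8 and 138.8 CPM, against 250.4, 150.3 and 155.1 CPM in fat LYVE1- libraries. The sorts did not overlap in either tissue, but in fat the gap between the nearest libraries was narrow and the highest value belonged to library 1. The log2 fold change was -0.729 in the aorta (SE 0.199, 95% interval -1.158 to -0.3, edgeR adjusted p = 0.16), -0.419 in fat (SE 0.199, -0.848 to 0.01, 0.332) and -0.574 on average (SE 0.14, 0.029). In fat without both libraries numbered 1 it was -0.102 (SE 0.169, adjusted p = 0.828), and the average was then -0.415 (SE 0.109, 0.0275). In the aorta it was called with DESeq2 (adjusted p = 0.0261), without the filter on low counts (0.0418), without both fat libraries numbered 1 (0.0106) and without fat LYVE1- library 1 (0.0373). The aortic difference was not called with the prefix in the model (-0.731, SE 0.306, edgeR adjusted p = 0.803). Nor was it called with the replicate block (0.106) or with the aortic groups alone in the fit (0.0511). The average call ended with the library prefix in the model (-0.575, 0.155), without aorta LYVE1+ library 1 (0.072), 2 (0.055) or 3 (0.0605), without aorta LYVE1- library 1 (0.0813) or 3 (0.0634), and without fat LYVE1+ library 2 (0.0595) or 3 (0.0675).

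Csf2rb2, the IL-3 beta chain of mice, was not called in any comparison. It had 49.50, 54.42 and 36.71 CPM in aorta LYVE1+ libraries, against 65.21, 59.79 and 70.32 CPM in aorta LYVE1- libraries, and these did not overlap. In fat the LYVE1+ libraries had 46.83, 77.39 and 65.52 CPM and the LYVE1- libraries 65.64, 71.84 and 52.96 CPM, and these did overlap. The log2 fold change was -0.473 in the aorta (SE 0.199, 95% interval -0.904 to -0.043, edgeR adjusted p = 0.384), 0.000 in fat (SE 0.201, -0.435 to 0.435, adjusted p = 1) and -0.237 on average (SE 0.141, adjusted p = 0.374). Since the counts of the 2 beta chains may exchange reads, they were also summed as 1 gene, a choice made after the data had been seen. In the aorta the sum was 141.7 to 162.4 CPM in LYVE1+ against 196 to 267.9 CPM in LYVE1- libraries. In fat it was 177.5 to 223.1 CPM in LYVE1+ against 208.1 to 316 CPM in LYVE1- libraries. Its average difference was called (-0.478, SE 0.127, adjusted p = 0.0419) and those in the aorta (-0.655, SE 0.18, 0.162) and in fat (-0.302, SE 0.18, 0.479) were not.

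Ccr2, the receptor that brings monocytes into tissues, moved with these chains, and the other monocyte markers were not called. The 4 monocyte markers Ly6c2, Ccr2, Plac8 and Chil3 summed, on the plain library size, to 15.3 to 21.1 CPM in aorta LYVE1+ against 138 to 289 CPM in aorta LYVE1- libraries. In fat the sums were 67.2 to 189 CPM in LYVE1+ against 643 to 778 CPM in LYVE1- libraries. As group means these sums were mostly Ccr2, which averaged 10.6 CPM in aorta LYVE1+ against 223.5 CPM in aorta LYVE1- cells. Single aorta LYVE1+ libraries had as little as 8.024 CPM of Ccr2 and as much as 11.48 CPM of Chil3. In fat Ccr2 averaged 78.3 CPM in LYVE1+ against 670.2 CPM in LYVE1- cells. It was the only 1 of the 4 called, lower in LYVE1+ cells of the aorta (log2 -4.403, SE 0.491, edgeR adjusted p = 0.00198) and of fat (-3.11, SE 0.458, 0.00237), and the aortic call ended with the prefix in the model (-4.638, SE 0.846, 0.257). In each tissue 1 of the 4 had a positive fold change. Chil3 averaged 4.48 ± 6.08 CPM in aorta LYVE1+ against 1.11 ± 1.25 CPM in aorta LYVE1- cells (adjusted p = 0.635), and Plac8 averaged 24.3 ± 2.64 CPM in fat LYVE1+ against 11.2 ± 5.22 CPM in fat LYVE1- cells (0.266; SD, n = 3 each). None of the 4 was at 0 throughout a group. Mast cell and eosinophil transcripts, from cells that carry the common beta chain, moved with Csf2rb in the aorta: 6 mast markers summed to 1.84 to 12.7 CPM in LYVE1+ and 46.4 to 76.5 CPM in LYVE1- libraries, and 6 eosinophil markers to 1.77 to 3.75 CPM in LYVE1+ and 10.5 to 29.6 CPM in LYVE1- libraries. Kit and Fcer1a of the mast list and Epx, Prg2 and Ear6 of the eosinophil list were at 0 in all aorta LYVE1+ libraries. Of the 5 mast markers tested, none was called in the aorta and none had a positive fold change. Of the 5 eosinophil markers tested, 1 was called lower there, beside 0.429% of all genes, and 1 had a positive fold change. Ccr3 of that list averaged 1.756 ± 1.362 CPM in aorta LYVE1+ against 1.439 ± 0.789 CPM in aorta LYVE1- cells (SD, n = 3 each). In fat these lists overlapped between the sorts (mast 2.13 to 49.5 CPM in LYVE1+ and 10.3 to 17.6 CPM in LYVE1-, eosinophil 5.92 to 41.6 CPM in LYVE1+ and 5.47 to 22.5 CPM in LYVE1-), and Epx was at 0 in every fat library. The 8 dendritic markers summed to 196 to 226 CPM in aorta LYVE1+ against 253 to 319 CPM in aorta LYVE1- libraries. These sums were mostly Cd209a, which averaged 134.3 ± 13.14 CPM in aorta LYVE1+ against 177.8 ± 17.26 CPM in aorta LYVE1- cells (SD, n = 3 each). All 8 had a negative fold change there, and 1 was called: Clec9a, which had no count in aorta LYVE1+ against 229 counts in aorta LYVE1- libraries (edgeR adjusted p = 0.0316). In fat the 8 summed to 356 to 392 CPM in LYVE1+ against 234 to 322 CPM in LYVE1- libraries, but 4 of the 8 had a positive fold change and 4 a negative one. The fat sum was mostly Cd209a, which averaged 281.2 ± 56.66 CPM in LYVE1+ against 170.6 ± 21.02 CPM in LYVE1- cells (SD, n = 3 each) and was called higher (0.723, SE 0.169, adjusted p = 0.0301). Flt3, Xcr1 and Clec9a had log2 fold changes of -1.647, -1.389 and -2.511 in fat and were not called. The part of these cells in the differences was not tested.

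**Figure D2:**
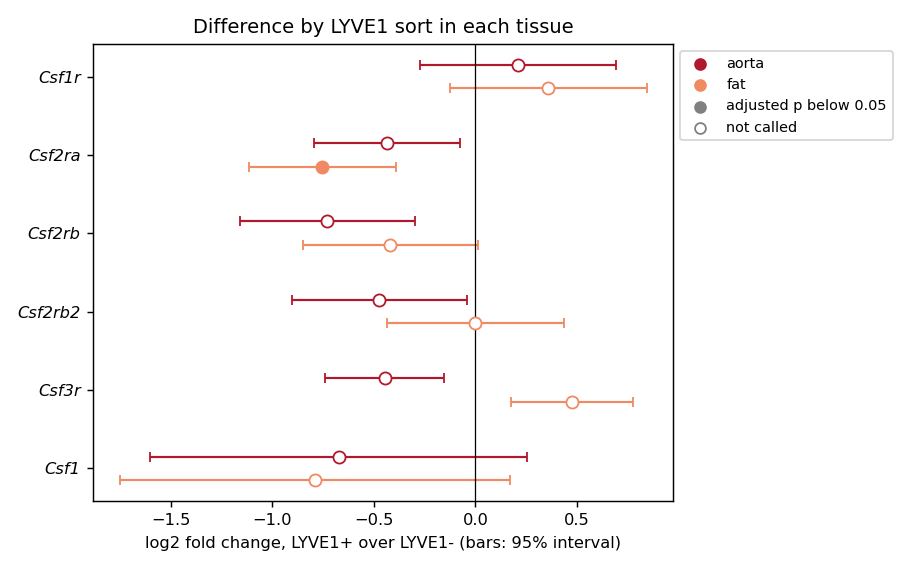
Log2 fold change, LYVE1+ over LYVE1- (horizontal axis), of the 6 tested members in aorta and fat, with 95% intervals from the edgeR fit. The filled point, Csf2ra in fat, is the 1 call (-0.755), and Csf3r is the member whose intervals lie on opposite sides of 0, at -0.446 in the aorta and 0.476 in fat.

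The fold change of Csf3r, the G-CSF receptor, had opposite signs in the 2 tissues, but no LYVE1 comparison of it was called in the main fit. In the aorta it stood at 46.84, 50.88 and 50.59 CPM in LYVE1+ libraries 1 to 3, against 74.24, 62.17 and 65.71 CPM in LYVE1- libraries. In fat it stood at 39.54, 49.91 and 45.66 CPM in LYVE1+ libraries, against 35.32, 31.40 and 30.66 CPM in LYVE1- libraries. The sorts did not overlap in either tissue, with LYVE1+ below LYVE1- in the aorta and above it in fat. The log2 fold change was -0.446 in the aorta (SE 0.135, 95% interval -0.739 to -0.154, edgeR adjusted p = 0.211) and 0.476 in fat (SE 0.138, 0.177 to 0.775, adjusted p = 0.0813), and neither was called. Their average was 0.015 (SE 0.096, adjusted p = 0.959). The difference between them, aorta minus fat, was -0.922 (SE 0.194, unadjusted p = 0.000374, adjusted p = 0.134). So 0 of 6 members were called for this interaction, beside 0.155% of all genes, 1 had an unadjusted p under 0.05 (Csf3r) and DESeq2 called that 1 (-0.938, adjusted p = 0.00468). Without both fat libraries numbered 1 the interaction was called (-1.069, SE 0.197, adjusted p = 0.0323), as was the fat difference (0.623, SE 0.154, 0.0307). The fat difference was also called with DESeq2 (0.481, 0.0388) and without fat LYVE1+ library 1 alone (0.0382). With the prefix in the model the aortic difference was -0.413 (SE 0.205, edgeR adjusted p = 0.875) and the interaction -0.889 (SE 0.253, 0.712).

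The clearest difference of Csf3r lay between the tissues. In LYVE1- cells it was 2.076-fold higher in the aorta than in fat (log2 1.054, SE 0.138, edgeR adjusted p = 0.00192), and in LYVE1+ cells the difference was 0.131 (SE 0.137, 95% interval -0.164 to 0.426, adjusted p = 0.731). Csf3r was the 1 of 6 members called between the tissues in LYVE1- cells, beside 1.66% of all genes called higher in the aorta, and the call held whichever 1 library was left out (highest adjusted p = 0.0151). All aorta LYVE1- libraries carry the prefix RHH and all fat libraries RMM, so for this comparison tissue and prefix cannot be told apart within the groups themselves; with the prefix in the model, estimated from aorta LYVE1+ libraries alone, the difference was 1.003 (SE 0.262, adjusted p = 0.519). In LYVE1+ cells 0 of 6 members were called between the tissues with edgeR or with DESeq2, beside 3.00% of all genes, and 1 (Csf2rb2) had an unadjusted p under 0.05. Adjusted p for these 6 ran from 0.323 to 0.837.

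Neutrophils, the cells best known for Csf3r, left few transcripts in any library. Ly6g, which defines them in the mouse, had no count in all 12 libraries, and S100a8 had at most 9 counts. Cxcr2 had 13 counts in aorta LYVE1+ libraries, 135 in aorta LYVE1- libraries and 0 in the fat libraries. Retnlg averaged 0.184 ± 0.237 CPM in aorta LYVE1+ and 0.785 ± 0.795 CPM in aorta LYVE1- cells. In fat it averaged 8.58 ± 8.74 CPM in LYVE1+ and 5.09 ± 4.03 CPM in LYVE1- cells (SD, n = 3 each). The 9 neutrophil markers together summed to 0.212 to 1.64 CPM in aorta LYVE1+ against 0.738 to 7.78 CPM in aorta LYVE1- libraries. In fat the range was 2.81 to 22.4 CPM in LYVE1+ against 2.40 to 11 CPM in LYVE1- libraries. Of the 9, 2 passed the filter on low counts. The highest sum belonged to fat LYVE1+ library 1, which stood apart from the rest in its mitochondrial and erythroid transcripts. The part of neutrophils in the Csf3r levels was not tested.

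Within a library, Csf1r exceeded each of the other receptor chains per kilobase, and the ratio depended on the group. The ratio of Csf1r to Csf2ra was 17.84, 13.91 and 16.66 in aorta LYVE1+ libraries, against 8.853, 11.54 and 10.42 in aorta LYVE1- libraries. In fat it was 10.01, 14.31 and 12.38 in LYVE1+ libraries, against 2.927, 8.133 and 7.176 in LYVE1- libraries. The sorts did not overlap in either tissue, and the value of fat LYVE1- library 1 lay far below those of libraries 2 and 3. The ratio of Csf1r to Csf2rb was 79.25, 74.73 and 80.10 in aorta LYVE1+ libraries against 31.26, 54.81 and 40.70 in aorta LYVE1- libraries, and 40.96, 52.12 and 52.54 in fat LYVE1+ libraries against 13.84, 43.76 and 37.04 in fat LYVE1- libraries. Here the sorts overlapped in fat. The ratio of Csf1r to Csf3r was 78.65 to 85.90 in aorta LYVE1+ and 42.33 to 59.55 in aorta LYVE1- libraries, and it overlapped in fat, at 67.12 to 79.21 in LYVE1+ and 48.67 to 103.8 in LYVE1- libraries. These ratios restate the levels above and were given no test.

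**Figure D3:**
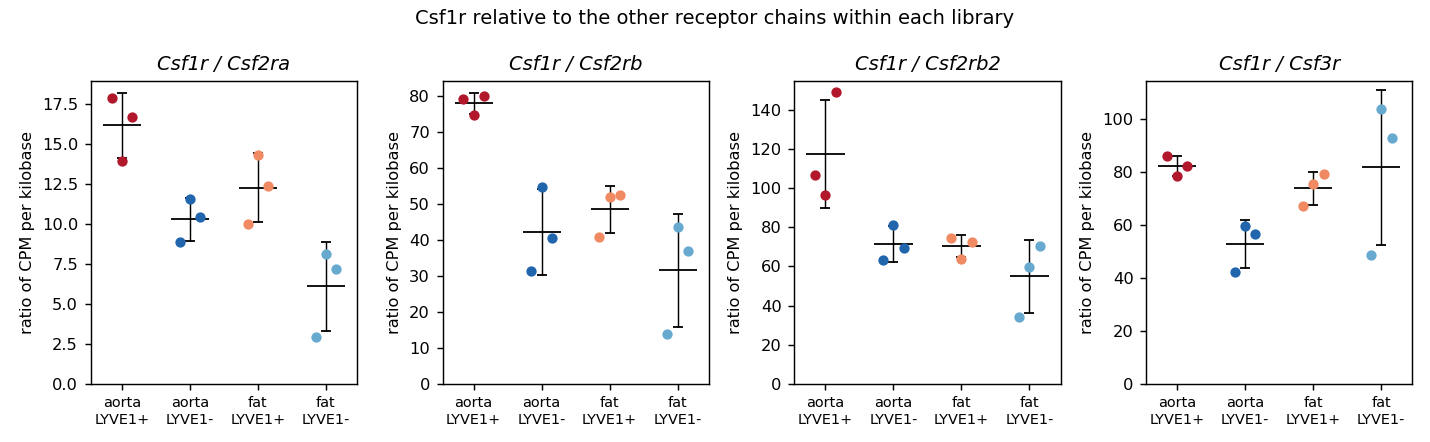
Ratio of Csf1r to Csf2ra, Csf2rb, Csf2rb2 and Csf3r (vertical axes, CPM per kilobase over CPM per kilobase, starting at 0) in each library, with the group mean and SD over 3 libraries. For Csf2ra the LYVE1+ libraries reach 13.91 to 17.84 in the aorta and 10.01 to 14.31 in fat, above the LYVE1- libraries of the same tissue.

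The ligands were scarce. Csf1, the main growth factor of macrophages, had 3.109, 4.886 and 4.767 CPM in aorta LYVE1+ libraries, against 7.825, 4.172 and 8.380 CPM in aorta LYVE1- libraries, and 3.647, 1.906 and 3.931 CPM in fat LYVE1+ libraries, against 7.549, 5.300 and 3.484 CPM in fat LYVE1- libraries. These levels rest on 19 to 138 counts per library, and the sorts overlapped in both tissues. The log2 fold change was -0.673 in the aorta (SE 0.428, 95% interval -1.599 to 0.252, edgeR adjusted p = 0.591), -0.79 in fat (SE 0.444, -1.75 to 0.171, 0.443) and -0.731 on average (SE 0.309, 0.195). The 6 fibroblast markers summed, on the plain library size, to 838.1 to 2507 CPM in aorta LYVE1+ and 1302 to 2244 CPM in aorta LYVE1- libraries. In fat the sums were 401.4 to 650.3 CPM in LYVE1+ and 510.6 to 991.8 CPM in LYVE1- libraries. The part of fibroblasts in the Csf1 levels was not tested. Il34, the other CSF1R ligand, had 28 counts in all: 10 in aorta LYVE1- library 2, 8 and 1 in fat LYVE1+ libraries 1 and 2, and 5 and 4 in fat LYVE1- libraries 1 and 3. It had no count in any aorta LYVE1+ library, where a count of 0 allows up to 0.1504, 0.2255 and 0.2134 CPM in libraries 1 to 3 (3 counts per library). No fold was computed for it.

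The ligands of the other receptors were read as well. Csf2, which encodes GM-CSF, was found in single libraries rather than in groups: 0, 1 and 73 counts in aorta LYVE1+ libraries, 72, 0 and 48 counts in aorta LYVE1- libraries, 29, 3 and 2 counts in fat LYVE1+ libraries and 34, 0 and 0 counts in fat LYVE1- libraries. The 7 T and NK markers summed, on the plain library size, to 9.051, 6.254 and 25.41 CPM in aorta LYVE1+ libraries. In aorta LYVE1- libraries the sums were 38.56, 23.43 and 24.99 CPM. In fat they were 153.3, 9.141 and 9.022 CPM in LYVE1+ libraries and 86.06, 17.37 and 21.15 CPM in LYVE1- libraries. The part of T and NK cells in the Csf2 counts was not tested. Csf3, which encodes G-CSF, had 9.127, 7.742 and 23.27 CPM in aorta LYVE1+ libraries, against 5.15, 5.257 and 6.376 CPM in aorta LYVE1- libraries. In fat Csf3 had 6.526, 7.366 and 7.257 CPM in LYVE1+ libraries, against 6.91, 4.318 and 4.082 CPM in LYVE1- libraries. Neither Csf2 nor Csf3 was called in any comparison. However, Csf3 was called higher on average with the prefix in the model and without both fat libraries numbered 1. Il3 had no count in any library. Il3ra, the alpha chain of the IL-3 receptor, averaged 47.31 ± 2.45 CPM in aorta LYVE1+, 34.79 ± 6.28 CPM in aorta LYVE1-, 52.58 ± 9.90 CPM in fat LYVE1+ and 41.85 ± 12.4 CPM in fat LYVE1- cells (SD, n = 3 each) and was not called, except higher on average with the replicate block. Of 14 other ligands and receptors of the family, 11 were tested. None was called in the aorta (3 with an unadjusted p under 0.05, 2 called by DESeq2) or in fat (1 with an unadjusted p under 0.05, 0 called by DESeq2), with median log2 fold changes of -0.548 and -0.051. The aortic median was the same with Kit at its bound of at least 110-fold lower, from 3 counts over the group, since Kit had no count in aorta LYVE1+ libraries. In the average over tissues 2 of the 11 were called lower, beside 3.43% of all genes: Sdc1, a heparan sulfate proteoglycan (log2 -2.448, SE 0.508, edgeR adjusted p = 0.0127), and Kit, the receptor of mast cells and progenitors (0.0411). Both calls ended with the prefix in the model, where the fold change of Sdc1 was -2.967 (SE 0.744, adjusted p = 0.0707) and that of Kit, which depends on the prior count, was -5.235 in place of -5.236 (SE 2.02 in place of 1.33, 0.252). Csf3 was then the 1 called, as higher. With the replicate block 3 were called lower (Sdc1, Kit and Flt3) and 1 higher (Il3ra). Without both fat libraries numbered 1, Sdc1 and Kit were called lower and Csf3 higher. That of Kit also ended when any 1 of 8 libraries was left out (0.0615 to 0.0948), and held without aorta LYVE1- 2, fat LYVE1+ 1 or fat LYVE1- 2 or 3.

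Genes known to be induced by GM-CSF or STAT5 in mouse myeloid cells were lower in LYVE1+ macrophages where they were called. The list held Pparg, Ccl22, Ccl17, Pim1, Itgax, Irf4, Bhlhe40 and Cish, all 8 of which were tested. In the aorta 3 of 8 were called lower and none higher, beside 0.429% of all genes called lower. In fat 2 of 8 were called lower, beside 2.10% of all genes. In the average over tissues 5 of 8 were called lower, beside 3.43%. All 8 had a negative fold change in both tissues, with a median of -2.229 in the aorta and -1.83 in fat, against -0.013 and 0.005 over all genes tested. No member of the list was called for a difference between the tissues' LYVE1 effects by edgeR or DESeq2, and none had an unadjusted p under 0.05 there. The list was drawn up with earlier results of these data known.

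Pparg, the lipid-sensing nuclear receptor that GM-CSF induces in lung macrophages, stood at 1.504, 4.134 and 1.281 CPM in aorta LYVE1+ libraries, against 12.57, 10.41 and 13.12 CPM in aorta LYVE1- libraries. In fat it stood at 7.102, 5.633 and 6.249 CPM in LYVE1+ libraries, against 33.65, 18.55 and 19.71 CPM in LYVE1- libraries. The sorts were well apart in both tissues (log2 -2.393, SE 0.408, edgeR adjusted p = 0.0209 in the aorta, and -1.925, SE 0.398, 0.0169 in fat). Ccl22, a chemokine of GM-CSF-stimulated dendritic cells and macrophages, had 0, 9 and 9 counts in aorta LYVE1+ libraries against 216, 297 and 359 in aorta LYVE1- libraries, and 5, 0 and 0 counts in fat LYVE1+ libraries against 222, 118 and 138 in fat LYVE1- libraries. Its log2 fold changes of -5.201 (SE 0.95, adjusted p = 0.0316) and -6.353 (SE 1.11, 0.00635) rest on so few LYVE1+ counts that they depend on the fit's prior count. Pim1, a kinase gene that STAT5 induces, had 81.49, 113.9 and 114.6 CPM in aorta LYVE1+ libraries against 227.5, 170.2 and 191.2 CPM in aorta LYVE1- libraries, and was called in the aorta (-0.926, SE 0.184, 0.0482) and on average (-0.804, SE 0.13, 0.00301). Itgax, the CD11c integrin that dendritic cells also carry (-3.874, SE 0.786, 0.0117), and Bhlhe40, a transcription factor (-1.901, SE 0.521, 0.0473), were called in the average alone. Cish, which encodes a STAT5-induced feedback inhibitor, had -1.112 in the aorta (SE 0.724, 0.602) and -0.471 in fat (SE 0.731, 0.824).

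The number of these calls depended on single libraries. In the aorta it was 0 without aorta LYVE1+ library 1 or 3 or aorta LYVE1- library 1 or 3, 1 without aorta LYVE1+ library 2 or fat LYVE1- library 3, and 4 without either fat library numbered 1. In fat it was 1 (Ccl22) without fat LYVE1+ library 2 or 3 or fat LYVE1- library 1, and 5 without fat LYVE1+ library 1. In the average it lay between 4 and 6, and Pparg, Pim1, Itgax and Ccl22 were called whichever 1 library was left out. Bhlhe40 was called there only without aorta LYVE1+ library 2 or fat LYVE1+ library 1 (otherwise 0.055 to 0.116). Further settings were added for this list after the data had been seen. With the prefix in the model 0 were called in the aorta, 2 in fat and 3 in the average, with the replicate block 4, 5 and 7, and without both fat libraries numbered 1 they were 5, 5 and 6. With DESeq2 they were 4, 3 and 6. Ccr2 moved with these genes in both tissues. The mast, eosinophil and dendritic sums moved with them in the aorta, where no sum of a LYVE1+ library reached that of any LYVE1- library. Dendritic cells also express Itgax, Ccl22 and Ccl17. The part of these cells was not tested.

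**Figure D4:**
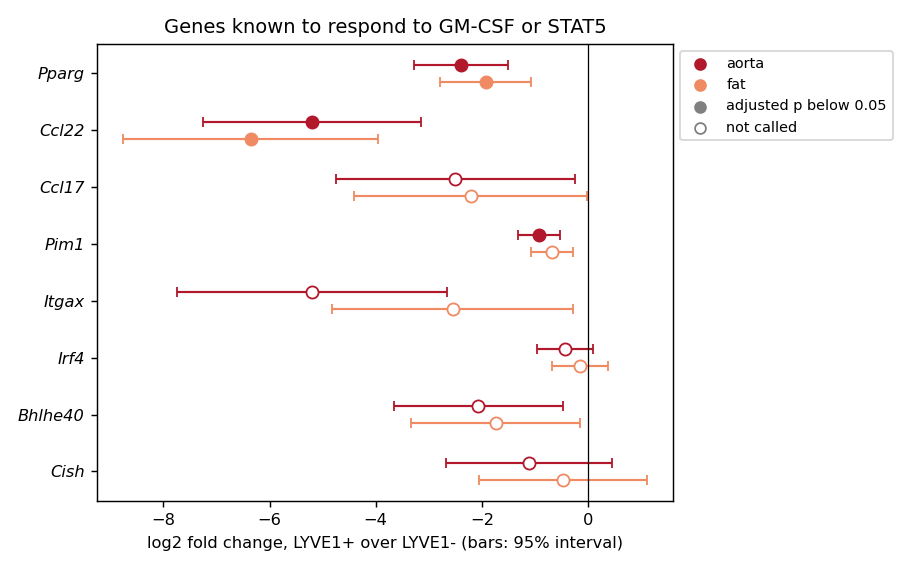
Log2 fold change, LYVE1+ over LYVE1- (horizontal axis), of the 8 genes known to respond to GM-CSF or STAT5, in aorta and fat, with 95% intervals. All points lie below 0, and the filled ones passed the test: Pparg and Ccl22 in both tissues and Pim1 in the aorta.

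The signalling genes below the receptors were read in 2 lists. Of 25 genes of CSF1R signalling, 1 was called lower in the aorta, beside 0.429% of all genes. None was called in fat, beside 2.10% of all genes (3 with an unadjusted p under 0.05, 2 called by DESeq2). In the average over tissues 2 were called, beside 3.43% of all genes, with medians of -0.261, -0.183 and -0.105 against -0.013, 0.005 and -0.007 over all genes. Pik3cb, a catalytic subunit of phosphoinositide 3-kinase, averaged 3.75 ± 0.590 CPM in aorta LYVE1+ against 15.3 ± 6.83 CPM in aorta LYVE1- cells. In fat it averaged 4.19 ± 1.85 CPM in LYVE1+ against 12 ± 2.89 CPM in LYVE1- cells (SD, n = 3 each). It was called in the aorta (-2.025, SE 0.404, edgeR adjusted p = 0.0488) and on average (-1.751, SE 0.286, 0.00316). The aortic call ended with the block (0.068), with the prefix (0.624) and when any 1 of 9 libraries was left out (0.0516 to 0.253), and held without aorta LYVE1- 2, fat LYVE1+ 1 or fat LYVE1- 1. Plcg2, a phospholipase, was called on average (-0.403, SE 0.105, 0.0383), but not with the prefix (0.0955), without the filter (0.0571) or with any 1 of 8 libraries left out (0.07 to 0.0998), and held without aorta LYVE1+ 2, fat LYVE1+ 1 or fat LYVE1- 2 or 3. Of 12 genes of JAK and STAT signalling, which include Cish and Pim1, 1 was called lower in the aorta, beside 0.429% of all genes. It was Pim1, also the 1 called lower on average, beside 3.43%. None of the 12 was called in fat, beside 2.10% called lower (3 with an unadjusted p under 0.05, 2 called by DESeq2). These counts depended on the settings. In the average, the CSF1R signalling genes called lower were 5 with DESeq2 (Gab2, Fgr and Lyn added), 5 without both fat libraries numbered 1 (Fgr, Fyn and Lyn added), 4 with the replicate block (Fgr and Lyn added) and 1 with the prefix (Pik3cb). Fgr, Fyn and Lyn encode kinases of the Src family. Of the JAK and STAT genes, 4 were called lower on average with the block (Pim1, Cish, Lyn and Socs2), 3 without both fat libraries numbered 1 (Pim1, Lyn and Socs2) and 2 with DESeq2 (Pim1 and Lyn). In fat the block gave 1 called lower (Pim1) and 1 called higher, Socs3, an inhibitor of cytokine signalling. These genes were named after their values had been seen.

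Of the transcription factors that drive Csf1r, 1 of 7 was called between the sorts in the average, beside 3.43% of all genes called lower. Spi1, which encodes PU.1, averaged 430.6 ± 39.1 CPM in aorta LYVE1+, 423.9 ± 41.6 CPM in aorta LYVE1-, 366.6 ± 46.1 CPM in fat LYVE1+ and 324.1 ± 17.4 CPM in fat LYVE1- cells (SD, n = 3 each). Of the 7 regulators tested, none was called in the aorta (2 with an unadjusted p under 0.05, 1 called by DESeq2) or in fat (0 with an unadjusted p under 0.05, 0 called by DESeq2). Runx1 was called lower in LYVE1+ cells on average (log2 -0.379, SE 0.098, edgeR adjusted p = 0.0366). That call ended with the prefix (0.276), without the filter (0.0738) and when any 1 of 9 libraries was left out (0.0581 to 0.0997), and held without aorta LYVE1+ 3, aorta LYVE1- 3 or fat LYVE1+ 1.

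For each tested member, the genes with the most similar pattern were found among 8693 genes by the root mean square difference of centred log2 CPM over the 12 libraries. For Csf1r they were Slc9a9 (0.089), Scpep1 (0.09) and P2ry6 (0.092). Csf2ra was nearest to Tmem123 (0.124), Ccdc88a (0.173) and BC005537 (0.177), and Csf2rb to Odc1 (0.148), Hif1a (0.157) and Tmem123 (0.174), so that Tmem123 stood near both chains of the GM-CSF receptor. For Csf2rb2 they were Lpgat1 (0.141), Phf11b (0.152) and Zfx (0.155), and for Csf3r Hist1h1c (0.167), Rasa4 (0.17) and Lin54 (0.175). Csf1, with the fewest counts, had the most distant neighbours, Hmga1 (0.284), Rasa2 (0.295) and Ccdc88b (0.316). The measure uses all 12 libraries, including those numbered 1 of fat, and carries no test.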

How the data were processed

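Bulk RNA of 12 libraries in 4 groups was measured by Smart-seq2 from 2 ng of RNA, with paired reads of 51 cycles, per the labels' protocols. The deposited table holds raw counts per gene from the authors. Per the submitters' processing notes the build was GRCm38 and the tools were edgeR 3.14.0, featureCounts 1.5.0 and STAR 2.5.2b. The annotation release, the strand setting and the treatment of multiply mapped reads are not given in the sources used here. A deposited log2 CPM table was not used.

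Counts were tested with edgeR 4.0.16 (R 4.3.3): TMM factors, the default filter on low counts (14216 of 46517 genes kept), 1 mean per group over all 12 libraries (8 residual degrees of freedom), and the quasi-likelihood F test, two-sided, with Benjamini-Hochberg adjusted p under 0.05 as a call. The SE is the log2 fold change divided by the root of F, and intervals are 95%. Levels are TMM-scaled CPM, per kilobase over the union of M21 exons where genes are compared. Floors use 3 counts and, like the shares, cover counting error only, since reads carry no molecular identifiers. The scripts were tested on simulated data.

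The named genes are all members, up to 3 called genes of each list with the smallest adjusted p in each LYVE1 comparison, list genes that give the background of a member, and the 3 nearest genes to each member. The members and lists were chosen with earlier results of these data known. An item of the marker lists is not reported here. The comparison of the beta chains used transcripts of GENCODE M21 in place of proteins.

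Alternatives were DESeq2 1.42.0, RLE factors, no filter, the library prefix or the replicate number within tissue in the model, only the compared groups, and leaving out libraries. In fat the deviations of same-numbered LYVE1+ and LYVE1- libraries from their group means correlated, over genes, at 0.486, 0.279 and 0.184. LYVE1+ library 2 with LYVE1- library 3 gave 0.192, and 3 with 2 gave 0.225. A library 1 with a library 2 or 3 gave -0.366 to -0.269. These values set the libraries numbered 1 apart but do not show that the numbers pair libraries 2 and 3. The block treats same-numbered libraries as pairs. With the block, 915 genes were called in fat, against 558 without it.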

Additional observations from a re-analysis of the deposited data

Results flagged for a closer look

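The LYVE1 difference of Csf3r ran in opposite directions in the 2 tissues. The log2 difference, aorta minus fat, was -0.922 (SE 0.194, edgeR unadjusted p = 0.000374, adjusted p = 0.134), so the interaction missed the threshold. In the aorta each of the 3 LYVE1+ libraries (46.84 to 50.88 CPM) lay below each LYVE1- library (62.17 to 74.24 CPM), and in fat each LYVE1+ library (39.54 to 49.91 CPM) lay above each LYVE1- library (30.66 to 35.32 CPM). Leaving out any 1 library gave -1.005 to -0.838 with adjusted p of 0.0605 to 0.357, and the prefix in the model gave -0.889 (SE 0.253, adjusted p = 0.712).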

How the results depend on the processing

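Of the members' refitted fold changes, 635 stayed on the same side of the threshold, 11 moved past it and 14 fell short of it, and no called value changed sign. Genes called, in the order aorta, fat and average by LYVE1, interaction, LYVE1+ and LYVE1- between tissues, were 77, 558, 901, 22, 426 and 353, against 360, 1005, 1538, 103, 922 and 847 with DESeq2. With the prefix in the model they were 2 in the aorta, 278 on average, 0 for the interaction, and 181 and 7 between tissues, and 0 members were called on average and between LYVE1- tissues. Without the filter they were 336 in the aorta, 72 for the interaction, and 820 and 647 between tissues. Without both fat libraries numbered 1 they were 570, 898, 1589, 86, 899 and 1030. With only the compared groups they were 276 in the aorta, 175 in fat, and 216 between LYVE1+ tissues, and 0 members were called in fat. Members called in the aorta were 1 in place of 0 with DESeq2, without the filter and without both fat libraries numbered 1. In fat 2 members in place of 1, and for the interaction 1 in place of 0, were called with DESeq2 and without both fat libraries numbered 1. Leaving out 1 library at a time gave 20 to 213 genes in the aorta, 224 to 1036 in fat, 510 to 1671 on average, 0 to 49 for the interaction, and 179 to 550 and 104 to 542 between tissues, and 0 to 1, 0 to 2, 1 to 2, 0, 0 and 1 members. The causes were not tested.

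With the replicate number as a block within each tissue, 243 genes were called in the aorta, 915 in fat, 1470 on average and 23 for the interaction, and 0, 1, 3 and 0 members; Csf1r on average was the member added. In the aorta same-numbered libraries correlated at -0.044, -0.077 and -0.17, so the numbers do not pair those libraries. Per-kilobase levels moved by over 1 SD in 12 of 28 cases when the longest transcript replaced the exon union, and plain CPM moved none. The levels of Csf1, Il34 and Csf2 rest on few counts.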
